A study of Rattus norvegicus with 10 samples.

Results

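The genes described here are the bone morphogenetic protein ligands Bmp4 and Bmp2, the receptors Bmpr1a and Bmpr2, the secreted antagonists Grem1 and Nbl1, and the 4 Id genes, in HSC-2, a line of rat hepatic stellate cells. They were taken as all probe sets of the array whose only gene symbol is one of these 10 names, which gave 16 probe sets for 10 of 13286 named genes. All 16 were above the lowest deposited value on at least 1 array. The list was chosen with the contrast of miR-146a clones and control lines already known, in which Bmp4, Id1 and Id3 were higher, so levels in that contrast are described without a test. Where a gene had several probe sets, its values come from the one with the highest mean, and the others are given by their direction.

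HSC-2 cells are stellate cells of the liver and come from the Wistar strain. Total RNA of 5 lines of them was measured on Affymetrix arrays. The controls were the untransfected line and a line transfected with a scrambled sequence, written as GFPscr in the series text. The other 3 lines, S1, S4 and S5, are single clones transfected to overexpress rno-miR-146a. Each line contributed 1 array at passage 42 and 1 at passage 43, or 6 clone and 4 control arrays in all, with cells grown in high-glucose medium with serum and antibiotics. The promoter of the construct is not stated in the labels, and each clone is 1 cell lineage. No label calls the passages separate cultures, so a p-value between single lines reflects the spread of these samples alone, and that spread may be technical.

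The overexpressed microRNA defines the clones, so its mature sequence is shown (RefSeq, GRCr8, chr10:28350053-28350074, minus strand), with the seed at bases 2 to 8 in capitals. Mature miR-146a was not analysed here.
rno-miR-146a-5p: uGAGAACUgaauuccauggguu

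Bone morphogenetic proteins are secreted dimers of the TGF-beta superfamily. They bind a pair of serine/threonine kinase receptors, of which the type II receptor (Bmpr2) phosphorylates the type I receptor (Bmpr1a), which in turn phosphorylates Smad1, Smad5 and Smad9. These join Smad4 and enter the nucleus, where the Id genes are among the direct targets. Id proteins have a helix-loop-helix but no DNA-binding region and capture the E proteins and other partners. Gremlin 1 (Grem1) and Nbl1, also called DAN, bind the ligands outside the cell. In the liver the pathway is best known for controlling hepcidin, and TGF-beta, a relative of these ligands, drives the fibrogenic activation of stellate cells.

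All values are intensities on a linear scale with a lowest deposited value of 20, differences are on the log2 scale, and levels of different probe sets are not compared. Array medians lay between 97.7 and 103.7 intensity units. Of 14 measured stellate cell and fibroblast markers, 11 were over 100 on at least 1 array. Vim (21124 to 24794), Col1a1 (17936 to 24084) and Acta2 (1124 to 9626) were high on all arrays. Timp1 (2591 to 3879), Pdgfrb (720 to 1666) and Hand2 (213 to 352) were also over 100 on all arrays. The markers not over 100 were Gfap (28.1 to 38.1), Reln (30.0 to 41.5) and Ngfr (20 to 23.9), which lay near the lowest value. Des ran from 86.4 to 187. Over 100 on any array were 1 of 6 measured hepatocyte markers (Ttr, 150 to 207), 1 of 5 leukocyte markers (Cd14, 452 to 716), 1 of 6 endothelial markers (Tek, 99.8 to 198) and 0 of 3 biliary markers. Alb (30.7 to 38.4), Ptprc (20 to 21.0), Pecam1 (25.1 to 29.6) and Krt19 (20 to 23.9), which define these cell types, were near the lowest value. Summed over the 4 smooth muscle markers, intensity was 1028 to 2048 on clone arrays and 776 to 6854 on control arrays, and over 5 mesothelial and portal fibroblast markers it was 4148 to 8505 and 8018 to 10113. Their part in the results was not tested. In these bulk RNAs, fewer cells expressing a gene and less RNA per cell cannot be told apart.

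**Figure D1:**
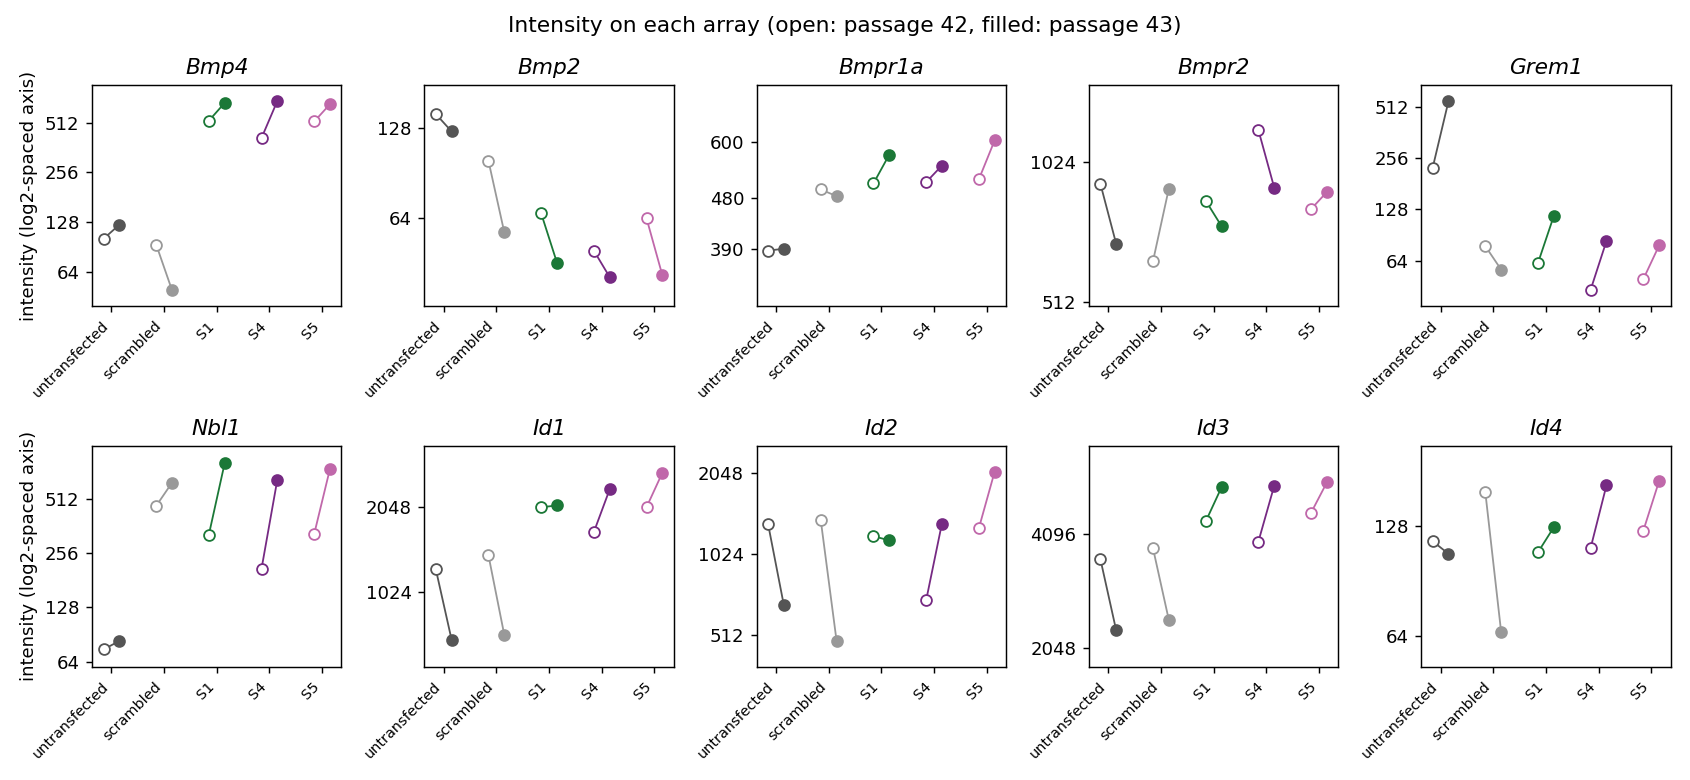
Intensity of each gene on each of the 10 arrays, on a log2-spaced axis that differs between panels, with open points for passage 42, filled points for passage 43 and a line joining the passages of 1 line. Bmp4 is at 414 to 693 on the clone arrays and 49.4 to 123 on the control arrays, while Grem1 is highest and Nbl1 lowest in the untransfected line.

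Bmp4 and its target genes Id1 and Id3 were higher on every clone array than on every control array. Bmp4, the ligand, measured 101 and 123 at passages 42 and 43 of the untransfected line and 93.3 and 49.4 in the scrambled line. S1 was at 526 and 674, S4 at 414 and 693, and S5 at 520.2 and 663. The clones thus formed a group well apart from both control lines, with a mean log2 level of 9.16 ± 0.08 (SD, n = 3) against 6.44 ± 0.51 (SD, n = 2), a 6.57-fold difference. The difference of line means was 2.26 to 2.42 against the untransfected line and 2.98 to 3.13 against the scrambled line.

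Id1, an inhibitor of differentiation whose gene is a direct Smad target, measured 1234 and 691 at passages 42 and 43 of the untransfected line and 1381 and 719 in the scrambled line. S1 was at 2049 and 2080.3, S4 at 1672 and 2372, and S5 at 2049.9 and 2718, all above the 4 control arrays. On the log2 scale the clones averaged 11.06 ± 0.13 (SD, n = 3) against 9.91 ± 0.08 (SD, n = 2) for the controls, a 2.22-fold difference. Single clones differed by 1.11 to 1.35 from the untransfected and by 0.999 to 1.24 from the scrambled line.

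Id3, a second Id gene with the same mode of action, measured 3518 and 2281 in the untransfected and 3749 and 2428 in the scrambled line. S1 was at 4417 and 5437, S4 at 3909 and 5487, and S5 at 4658 and 5602. The groups did not overlap, but the lowest clone array (S4, passage 42) was close to the highest control array (scrambled, passage 42). The fold difference was 1.67, from log2 means of 12.25 ± 0.07 (SD, n = 3 clones) and 11.51 ± 0.06 (SD, n = 2 control lines).

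The other Id genes did not separate the lines. Id2 measured 1321 and 659.8 in the untransfected line and 1365 and 488 in the scrambled line, with S1 at 1190.2 and 1149, S4 at 688 and 1325, and S5 at 1272 and 2062. Its groups overlapped, with mean log2 levels of 10.25 ± 0.38 (SD, n = 3) and 9.77 ± 0.14 (SD, n = 2), and its other probe set also overlapped. Id4 had 4 probe sets, the highest of which measured 65.6 to 159 on the control arrays and 109 to 171 on the clone arrays. The clones were higher on average by 0.31, 0.06, 0.31 and 0.17 on these probe sets, and the groups overlapped on each. The last of these probe sets lay near the lowest value, at 20 to 32.7 on all arrays. The first difference varied with the scrambled array kept, being -0.0074 without that of passage 43 and 0.63 without that of passage 42. Against the untransfected line alone the clones were at 0.07 to 0.38 on that probe set.

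The 300 bases around the starts of Bmp4, Id1 and Id3 are shown because these genes are the ligand and the Id genes whose clone arrays all lay above the control arrays. They run from 250 bases before to 50 after the start (RefSeq, GRCr8), with Bmp4 at chr15:22101884-22102183 on the minus strand, Id1 at chr3:161671314-161671613 and Id3 at chr5:153656041-153656340, both on the plus strand. Capitals mark the Smad-binding element CAGAC or its reverse complement GTCTG. The other motif searched, the palindrome GGCGCC bound by Smad1 and Smad5, was not in these 3 windows.
Bmp4: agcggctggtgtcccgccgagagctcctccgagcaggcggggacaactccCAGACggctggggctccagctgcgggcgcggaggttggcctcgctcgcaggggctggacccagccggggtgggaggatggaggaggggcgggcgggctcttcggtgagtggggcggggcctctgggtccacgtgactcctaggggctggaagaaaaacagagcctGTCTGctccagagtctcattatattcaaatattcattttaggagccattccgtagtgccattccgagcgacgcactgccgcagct
Id1: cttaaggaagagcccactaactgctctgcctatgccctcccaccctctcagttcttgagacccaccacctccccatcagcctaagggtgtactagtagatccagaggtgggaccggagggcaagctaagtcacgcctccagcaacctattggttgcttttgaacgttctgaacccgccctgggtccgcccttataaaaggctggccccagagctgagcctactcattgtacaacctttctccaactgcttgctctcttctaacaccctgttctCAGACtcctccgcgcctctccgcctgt
Id3: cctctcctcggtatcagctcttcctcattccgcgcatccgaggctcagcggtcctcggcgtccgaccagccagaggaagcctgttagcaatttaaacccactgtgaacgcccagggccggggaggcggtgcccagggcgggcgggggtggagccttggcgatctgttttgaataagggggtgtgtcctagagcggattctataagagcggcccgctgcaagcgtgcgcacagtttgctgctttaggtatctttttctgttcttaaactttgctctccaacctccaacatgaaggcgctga

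Of the 10 genes, 9 had an entry among 33469 promoters of this length. CAGAC or its complement was in 4 of these 9 (Bmp4, Id1, Grem1 and Nbl1) and in 50.1% of all promoters. GGCGCC was in 3 (Grem1, Nbl1 and Id4) and in 11.0% of all. Both strands were searched, and in Grem1 and Nbl1, which hold both motifs, the matches did not overlap. A match describes letters and not binding.

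The receptors had small differences of line means between clones and controls. Bmpr1a, the type I receptor, measured 388 and 391 in the untransfected line and 496 and 483 in the scrambled line, with S1 at 508 and 570.5, S4 at 511 and 546, and S5 at 516 and 604. Every clone array was above every control array, but the scrambled arrays lay close below the clones. The difference was 0.44 to 0.52 against the untransfected line and 0.11 to 0.19 against the scrambled line. Bmpr2, the type II receptor, measured 629 to 922 on the control arrays and 747 to 1201 on the clone arrays, which overlapped. Its second probe set, at 24.8 to 32.2 on all arrays and thus near the lowest value, was lower on every clone array than on every control array, by 0.17, opposite to the first.

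Bmp2, the second ligand, was lower in the clones than in the untransfected line and less clearly so against the scrambled line. It measured 142 and 124 in the untransfected line and 99.3 and 57.4 in the scrambled line, with S1 at 66.4 and 45.4, S4 at 49.8 and 40.7, and S5 at 63.9 and 41.3. The clone arrays lay below both untransfected arrays and overlapped the scrambled array of passage 43. The difference of line means was -1.56 to -1.28 against the untransfected and -0.75 to -0.46 against the scrambled line. The other Bmp2 probe set measured 34.6 and 20 in the scrambled line and 20 to 31.6 in the clones, with 4 of 6 clone arrays at the lowest value, so its difference of -0.62 is limited by that value.

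The antagonists set the untransfected line apart from the other 4 lines. Grem1 measured 224 and 549 in the untransfected line and 77.8 and 56.7 in the scrambled line, with S1 at 62 and 117, S4 at 43.3 and 83.45, and S5 at 49.9 and 78.6. Nbl1 measured 74.8 and 83.2 in the untransfected line and 468 and 629 in the scrambled line, with S1 at 324 and 808, S4 at 210.05 and 655, and S5 at 328 and 754. For each gene the clone arrays overlapped the scrambled arrays and lay apart from the untransfected arrays. Against the untransfected line the clones were at -2.54 to -2.04 for Grem1 and at 2.23 to 2.70 for Nbl1, and against the scrambled line at -0.14 to 0.36 and at -0.55 to -0.08. The mean over both control lines therefore describes neither line for these antagonists, with SDs of 1.70 and 1.97 between the 2 control lines.

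**Figure D2:**
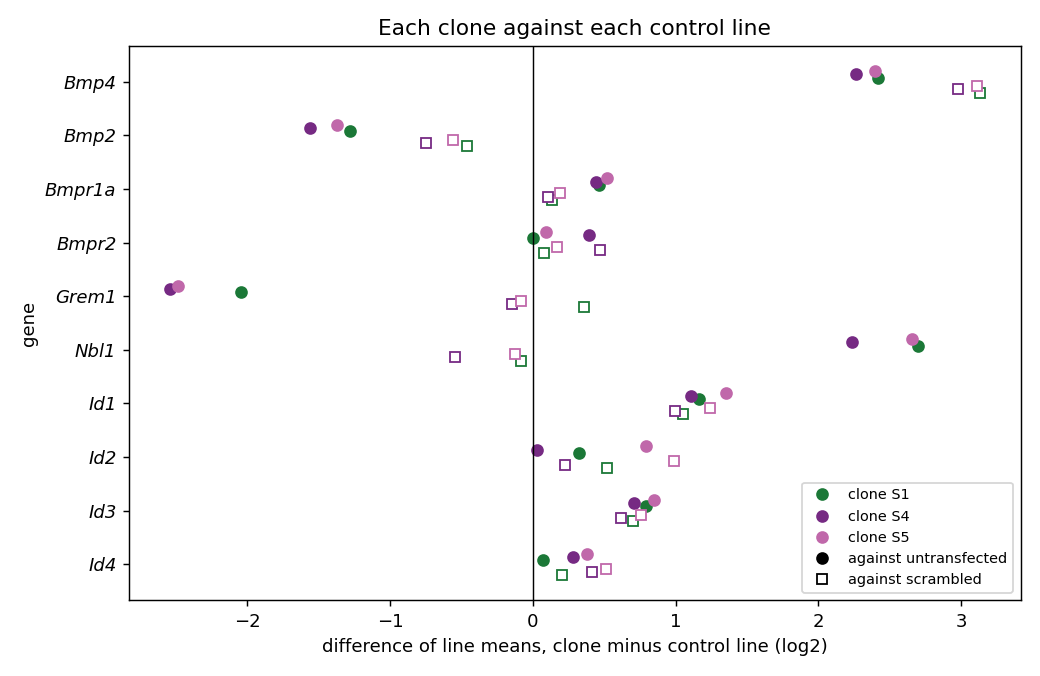
Difference of line means (log2, x axis) of each clone against each control line, for the 10 genes (y axis), with filled circles against the untransfected line and open squares against the scrambled line. Bmp4 is at 2.26 to 3.13 in all 6 comparisons, while Grem1 and Nbl1 lie far from 0 against the untransfected line and between -0.55 and 0.36 against the scrambled line.

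In all, 4 of the 10 genes (Bmp4, Bmpr1a, Id1 and Id3) had every clone array above every control array and 0 had every one below. Among the 27520 probe sets tested, 7.50% had groups that did not overlap, in either direction, and 4.06% with the clones higher. The list was chosen on this contrast, so nothing is read from its count. With quantile normalization, Id3 and Bmpr1a no longer kept all clone arrays above all control arrays and Bmp4 and Id1 did. Against the untransfected arrays alone 7 genes were apart in either direction, beside 25.9% of all probe sets. The additional ones were Bmp2 and Grem1, lower in the clones, and Nbl1, higher in the clones. Against the scrambled arrays alone the same 4 were apart, beside 25.3%.

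The contrast between the control lines was tested. It was not the contrast on which the list was chosen, but the genes were chosen with earlier results of these data known. Grem1 was lower in the scrambled line, at -2.40 on the log2 scale (SE 0.51, limma adjusted p = 0.0369), and Nbl1 was higher by 2.78 (SE 0.63, limma adjusted p = 0.0431). These antagonists were the 2 of 10 genes past the threshold, beside 6.10% of all tested probe sets. Bmp2 was at -0.82 (SE 0.31, limma adjusted p = 0.177), and it also passed when passage entered the fit as a replicate block (limma adjusted p = 0.0160). Bmpr1a was at 0.33 (SE 0.11, limma adjusted p = 0.135) and Bmp4 at -0.72 (SE 0.34, limma adjusted p = 0.267). On the probe set of highest mean, the Id genes were at -0.19 to 0.11, with SEs of 0.29 to 0.55. The other Id2 probe set was at 0.04. The other Id4 probe sets were at -0.25, 0.54 (SE 0.16, limma adjusted p = 0.0869) and 0.10.

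Calls in this contrast rest on few arrays. Grem1 kept its call without the untransfected array of passage 42 and Nbl1 kept its call without either S4 array, and each lost it on leaving out any other array, with limma adjusted p of up to 0.182 and 0.173. Over those fits the difference ran from -3.05 to -1.75 for Grem1 and from 2.57 to 2.99 for Nbl1.

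The 3 clones were then compared with each other. For Bmp4 the line means of the clones spanned 0.15, for Id3 0.14 and for Id1 0.25 on the log2 scale, and the widest span was 0.76 for Id2, lowest in S4 and highest in S5. None of the 10 genes passed the limma F test between clones, beside 0.0327% of all probe sets past the threshold, and 0 had an unadjusted p under 0.05. With 2 arrays a clone, this shows only that differences between clones were not detectable against the spread between passages, which for Bmp4 was an SD of 0.25 to 0.53 within a clone. The test has no passage term, so this spread includes the Bmp4 rise from passage 42 to 43 in S1, S4 and S5 (0.36, 0.74 and 0.35). With passage as a replicate block, 0 of the 10 genes passed as well.

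Passage was compared within each line. The Id genes had lower values at passage 43 than at passage 42 in both control lines and mostly higher ones in the clones. Id1 changed by -0.84 in the untransfected and -0.94 in the scrambled line, and by 0.02, 0.50 and 0.41 in S1, S4 and S5. Id3 changed by -0.62 and -0.63 in the control lines and by 0.30, 0.49 and 0.27 in the clones. Id2 was at -1.002 and -1.49 in the control lines and at -0.05, 0.95 and 0.70 in the clones, and Id4 at -0.12 and -1.28 against 0.23, 0.57 and 0.46. A single line has no replicate of its change, so these values carry no test.

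Within the control lines the mean passage change was -0.89 for Id1 (SE 0.13, limma adjusted p = 0.0787), -0.63 for Id3 (SE 0.10, limma adjusted p = 0.0787) and -1.24 for Id2 (SE 0.24, limma adjusted p = 0.0947). None of the 10 genes passed there, beside 1 probe set of all (0.00363%). An unadjusted limma p under 0.05 was found for 5 genes, and the share of all probe sets with such a p was not computed. The change in the clones minus that in the control lines was 1.20 for Id1 (SE 0.17), 0.98 for Id3 (SE 0.13) and 1.77 for Id2 (SE 0.31), with limma adjusted p of 0.277, 0.251 and 0.338. Here too 0 of 10 genes passed, beside 5 probe sets of all (0.0182%). Again 5 genes had an unadjusted limma p under 0.05, with no share of all probe sets computed for that count. The difference in passage change thus passed for none of the Id genes. A miss of the threshold does not show that the changes were alike. On the probe set of highest mean, Id1, Id3 and Id4 had values above 0 in every clone and below 0 in both control lines, or 3 of 10 genes beside 5.48% of all probe sets with such a pattern in either direction. For Id4 this held on that probe set alone. Of its other 3 probe sets, 1 was below 0 in all clones (-0.38, -0.05 and -0.08), 1 was below 0 in S5 (-0.10) and 1, near the lowest value, in S1 (-0.49). The other Id2 probe set did have the pattern, at -0.23 and -1.80 in the control lines and 0.21, 0.87 and 0.27 in the clones. The second Bmpr2 probe set, near the lowest value, had the reverse pattern.

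The clones and controls were also set side by side within each passage. The clone minus control difference was 0.55 for Id1 at passage 42 and 1.75 at passage 43. For Id3 it was 0.25 and 1.23, for Id2 -0.41 and 1.37, and for Id4 -0.25 and 0.87. Bmp4 was at 2.32 and 3.12 and Bmpr1a at 0.22 and 0.40. Bmp4, Id1 and Id3 were thus higher on average in the clones at each passage. For Id2 and Id4 the direction at passage 42 differed between probe sets, with the other Id2 probe set at 0.02 and the other Id4 probe sets at -0.19, 0.11 and -0.12. At passage 43 these were at 1.48, 0.31, 0.51 and 0.45, above 0 on every probe set of both genes.

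**Figure D3:**
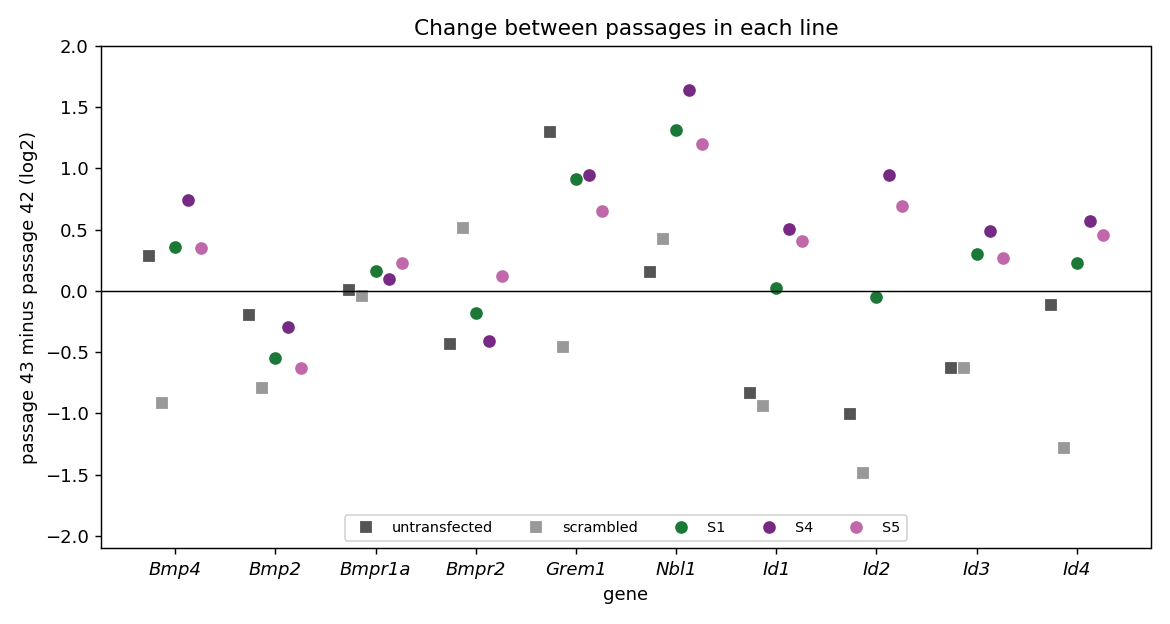
Change from passage 42 to passage 43 (log2, y axis) in each of the 5 lines for the 10 genes (x axis), with squares for the control lines and circles for the clones. Id1 and Id3 lie below 0 in both control lines and above 0 in the 3 clones, and Nbl1 is at 1.20 to 1.64 in the clones.

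Nbl1 and Bmp2 changed with passage over the 5 lines together, in opposite directions. Nbl1 rose by 0.95 (SE 0.21, limma adjusted p = 0.0497) and Bmp2 fell by 0.49 (SE 0.10, limma adjusted p = 0.0347), and on these probe sets all 5 lines had the same sign for each gene. The other Bmp2 probe set, with 5 arrays at the lowest value, did not pass (-0.38, limma adjusted p = 0.160) and was at 0.05 in the untransfected line and 0 in S4. These were 2 of 10 genes, beside 5.52% of all probe sets. The rise of Nbl1 was 1.32, 1.64 and 1.20 in S1, S4 and S5 and 0.15 and 0.43 in the untransfected and scrambled lines. Within the clones it was 1.39 (SE 0.11, limma adjusted p = 0.0254), the 1 gene of 10 past the threshold there, beside 1.16% of all probe sets. Grem1 changed by 0.92, 0.95 and 0.66 in the clones, 1.30 in the untransfected line and -0.46 in the scrambled line (mean 0.67, SE 0.23, limma adjusted p = 0.140). Bmp4 was at 0.36, 0.74 and 0.35 in the clones, 0.28 in the untransfected and -0.92 in the scrambled line.

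The passage calls also depended on single lines. With line as a block, an array left alone in its line adds nothing to the passage change. Leaving out either array of a line thus equals leaving out that line. Without any 1 clone array, Nbl1 and Bmp2 did not pass over the 5 lines and Nbl1 did not pass within the clones. Without either scrambled array, the count over the 5 lines was 1, with Grem1 past the threshold in place of Nbl1 and Bmp2. The direction of both genes was the same in all of these fits, with limma adjusted p of 0.0373 to 0.159 for Bmp2 and 0.0442 to 0.203 for Nbl1.

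The rest of the pathway was examined through 71 further genes, of which 53 were measured. Smad7, an inhibitory Smad that is induced by the pathway and blocks the type I receptor, was the 1 gene past the threshold between clones and control lines, tested on the 5 line means. It measured 259 to 325 on the control arrays and 481 to 609.7 on the clone arrays, which did not overlap, a difference of 0.81 (SE 0.08, limma adjusted p = 0.0372). It lost its call without the untransfected array of passage 42, the S1 array of passage 43 or any S4 or S5 array (limma adjusted p of 0.0505 to 0.0668), and without S1, S4 or S5 as a whole (0.226, 0.148 and 0.282). The other 52 did not pass, and 0.898% of all probe sets passed. Of the 53 genes, 9 had an unadjusted limma p under 0.05, and the share of all probe sets with such a p was not computed. The median difference was 0.00027 over the 53 genes and -0.0084 over all tested probe sets.

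By role, 0 of 7 ligands passed, with a median of 0.0093. Bmp3, which can oppose other BMPs, was at 0.72 (SE 0.52), Bmp5 at -0.17 (SE 0.10), close to the lowest value on all arrays, and Bmp6, the main inducer of hepcidin, at -0.16 (SE 0.20). Of 9 receptors and co-receptors 0 passed, with a median of -0.01. Acvr2a, a type II receptor shared with activins, was at -0.76 (SE 0.10, limma adjusted p = 0.0604). The co-receptors Rgma and Rgmb were at -0.66 (SE 0.18, limma adjusted p = 0.199) and 0.31 (SE 0.16). On 10 arrays with line as a random block and passage as a replicate block, Acvr2a and Rgma passed (limma adjusted p = 0.0123 and 0.0403).

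Of 13 antagonists and modulators 0 passed, with a median of 0.14. Bmper, a secreted regulator of BMP activity, was at -1.17 (SE 0.42), Chrd, the antagonist chordin, at 0.98 (SE 0.55) and Crim1, a membrane protein that binds BMPs, at 0.89 (SE 0.60). Of 10 Smads and regulators 1 passed and 9 did not, with a median of 0.22. Smad9, a BMP receptor-activated Smad, was at 1.08 (SE 0.43, limma adjusted p = 0.327), and Tob1, an antiproliferative protein that restrains Smads, at 0.46 (SE 0.19).

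Of 8 other reported targets 0 passed, with a median of -0.06. The transcription factors Atoh8, Hey1 and Dlx3 were at 0.93 (SE 0.53), -0.69 (SE 0.31) and -0.40 (SE 0.13). Of 6 partners of Id proteins 0 passed, with a median of -0.26. Twist1, a mesenchymal helix-loop-helix factor, measured 466 to 753 on the control arrays and 367 to 449 on the clone arrays, at -0.58 (SE 0.17, limma adjusted p = 0.222). Twist2, near the lowest value at 22.4 to 39.5 on all arrays, was at -0.36 (SE 0.15). Myod1, the muscle determination factor, was listed at 20 on every untransfected and clone array and at 130.4 and 84.5 in the scrambled line.

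**Figure D4:**
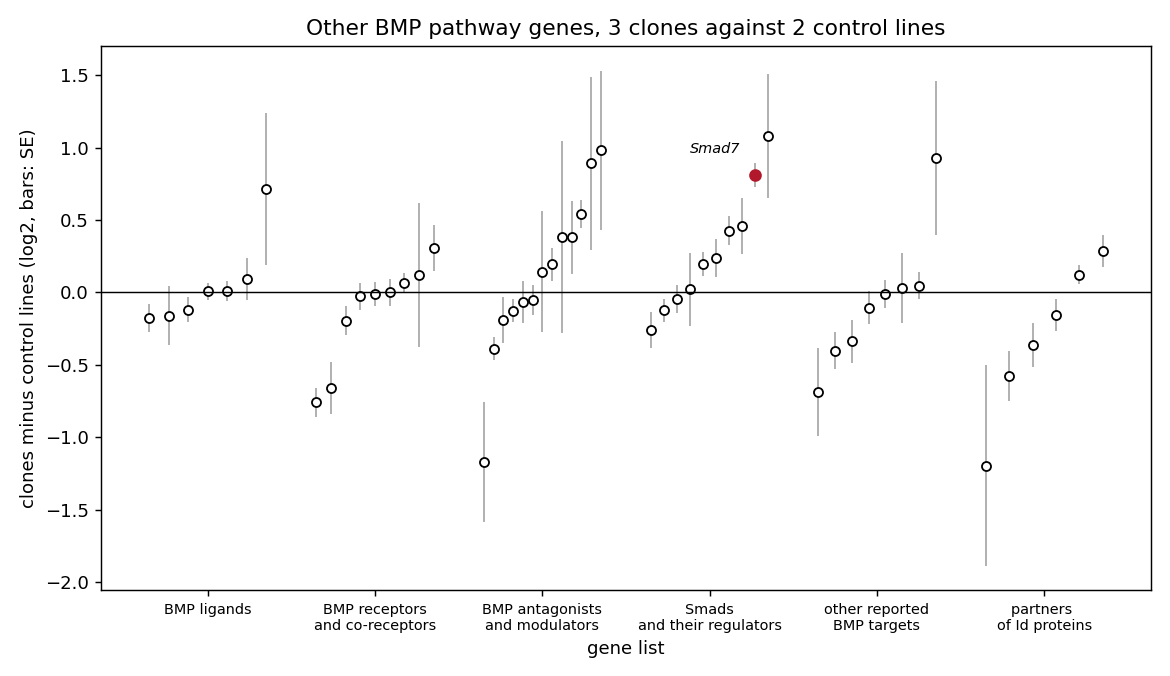
Clone minus control difference (log2, y axis, bars are SE) of the 53 further pathway genes by list (x axis), from 3 clones and 2 control lines, with the gene past the limma threshold filled. Smad7 at 0.81 is the 1 filled point, and genes with larger differences such as Smad9 at 1.08 have wide bars.

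The control lines differed from each other in these genes. Between the scrambled and untransfected lines 11 of the 53 genes passed, 4 higher and 7 lower, beside 6.10% of all probe sets, and 5 of the 11 were antagonists or modulators. These genes were named after their values were seen. Chrd (1.89, SE 0.35) and Bmper (1.36, SE 0.20) were higher in the scrambled line, as were Bmp3 (1.80, SE 0.25) and Myod1 (at least 5.25-fold). Bambi, a decoy receptor, was at -2.29 (SE 0.33), Crim1 at -2.04 (SE 0.30) and Fstl3, a follistatin relative that binds activins, at -1.43 (SE 0.20). Hey1, Smurf1, Hes1 and Twist1 were at -1.03, -0.85, -0.81 and -0.53. For the 11 genes the limma adjusted p was 0.000613 to 0.0427. Twist1 lost its call in 10 of 15 alternative fits, and Chrd, Smurf1, Bmper, Fstl3, Hey1, Hes1, Crim1 and Bambi in 1 to 4 of 15. With passage, 3 of the 53 passed, Fst at -0.58, Twsg1 at 0.37 and Bmp6 at -0.34 (limma adjusted p = 0.0208, 0.0291 and 0.0303). Each lost its call in 13 to 16 of 20 alternative fits. Leaving out either array of a line or the whole line is the same fit here, so the 20 are not distinct.

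Each clone was set against each control line for these further genes, on 10 arrays with limma. Smad7 passed in all 6 comparisons, at 0.69 to 0.76 against the untransfected and 0.87 to 0.94 against the scrambled line. Bmp3 (1.54 to 1.73) and Chrd (1.85 to 1.98) were higher and Acvr2a (-0.97 to -0.80), Hey1 (-1.29 to -1.12) and Twist1 (-0.94 to -0.75) lower in each clone against the untransfected line. Crim1 (1.81 to 2.06) and Fstl1 (0.50 to 0.73), a follistatin-like secreted protein named after its values were seen, were higher and Bmper (-2.08 to -1.64), Rgma (-1.01 to -0.75) and Myod1 lower in each clone against the scrambled line. Comparisons with 1 control line share its arrays. The counts were 7, 8 and 9 of 53 for S1, S4 and S5 against the untransfected line, beside 4.38%, 3.52% and 3.63% of all probe sets, and 7, 7 and 7 against the scrambled line, beside 4.19%, 3.64% and 3.44%.

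Genes most like Bmp4 were sought by Pearson correlation of log2 intensity over the 10 arrays. The search covered 3447 probe sets with a range of at least 1. The arrays come from 5 lines, so they are not independent points, and the values describe these arrays. Bmp4 and Id1 were chosen with the contrast of clones and controls known, so a high r in part restates that contrast. The closest were Thrb, the thyroid hormone receptor beta (r = 0.997), Pcsk6, a proprotein convertase (0.991), Fam107b (0.989), Smad7 (0.988) and Pdgfrl, a PDGF receptor-like protein (0.987). Pcsk6 measured 799.7 to 1478 on the clone arrays and 73.8 to 217 on the control arrays. For Id1 the closest were Spats2l (0.983), Sh3bp4 (0.965) and Nrg1, the growth factor neuregulin 1 (0.962). Spats2l measured 712 to 1128 on the clone arrays and 232 to 518 on the control arrays.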

How the data were processed

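Biotin-labelled total RNA of 10 samples was hybridised to Affymetrix arrays, per the labels' protocols. The authors deposited linear-scale intensities from 20 to 30192, with 14.6% of values at 20. The submitters' processing notes name RMA. Its version and how its log2 output became linear are not given in the labels. Precision is limited by how many arrays there are.

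From 31099 probe sets, those at 20 on all arrays (3522) and the array's own controls (57) were left out, and 27520 were tested, 19202 of them with 1 gene symbol in the platform annotation. Tests used limma 3.58.1 in R 4.3.3 on log2 of the deposited intensity, with Benjamini-Hochberg adjustment over all tested probe sets and a threshold of 0.05. Clones were compared with control lines on 5 line means, single lines on 10 arrays with 1 coefficient per line, clones with each other by an F test, and passages with line as a block. The procedures were tested on simulated data. Alternatives were quantile normalization, an offset of 20, a stricter filter, the probe set of largest variance, other controls and blocks, and leaving out arrays or lines.

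The genes, the pathway lists and the tests were chosen with earlier results of these data known. Named further genes are those past the threshold and otherwise the 3 per list with the largest difference. Passage deviations correlated between all 10 pairs of lines at 0.136 to 0.648, so same-passage samples count as paired. The comparisons between lines have no passage term, and fits with passage as a replicate block are alternatives.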

Additional observations from a re-analysis of the deposited data

Results flagged for a closer look

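On the probe set of highest mean, the passage change was above 0 in all 3 clones and below 0 in both control lines for 3 of the 10 genes, Id1, Id3 and Id4. The other 3 Id4 probe sets did not have this pattern. The change in the clones minus that in the control lines was 1.20 for Id1, 0.98 for Id3 and 1.12 for Id4. Such a pattern in either direction was seen in 5.48% of all tested probe sets. By the test of the difference itself, the limma adjusted p was 0.277 for Id1, 0.251 for Id3 and 0.492 for Id4, and under the alternatives it ran from 0.104 to 0.969, 0.0902 to 0.987 and 0.169 to 0.987.

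Among the further pathway genes named, Smad9 (1.26) and Atoh8 (1.22) also had values above 0 in all clones and below 0 in both control lines, and Acvr2a (-0.49) and Hey1 (-0.38) had the reverse. Their limma adjusted p were 0.372, 0.496, 0.471 and 0.597.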

How the results depend on the processing

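The count of genes whose clone and control arrays did not overlap, in either direction, was 4, all with the clones higher. It was 2 with quantile normalization, 7 against the untransfected line alone (5 higher and 2 lower) and 4 to 5 without single arrays. Of the further pathway genes, 1 passed between clones and control lines. The count was 2 with the stricter filter, 11 and 10 with the untransfected or the scrambled line alone, and 0 without S1, S4 or S5. It was 0 to 2 without single arrays, 7 with line as a random block and 5 when passage was added to that as a replicate block (Acvr2a, Rgma, Bmp1, Fstl1 and Smad7). The random-block fits used within-line correlations of 0.049 and 0.210, so they count passages of a line as largely separate samples. With the probe set of largest variance the count was 1, Smad6 in place of Smad7. Crim1 turned to -0.13 and Bmp6 to 0.087 against the untransfected line alone, and Bmp3 to -0.18 against the scrambled line alone. Between the control lines the count of 2 was 1 with the offset, 0 to 1 without single arrays and 3 with the replicate block. For passage the count of 2 was 1 with the offset, 1 without the scrambled line, 0 without any 1 clone, 0 with no replicate block and 0 to 2 without single arrays. Within the clones the count of 1 was 0 to 2. The counts between clones and for the difference in passage change were 0 in all alternatives run. In the contrast of the control lines the replicate block was examined for the 10 genes and the further genes already past the threshold. Among these it changed no call other than that of Bmp2, which it added. Calls of the other further genes with that block were not examined. Signals near 20 limit Bmp5, Myod1, Twist2, the second probe sets of Bmp2 and Bmpr2 and the lowest of the Id4 probe sets. In comparisons between lines, arrays left alone in a line were assumed to vary like the other lines. In the passage fits such an array adds nothing.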
